A study of Sus scrofa with 12 samples.

Results

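The protease inhibitors described here were the genes of the serpin, WAP, cystatin, Kunitz and Kazal families that could be recognised by symbol in a gene expression table of pig oviduct cells. A fixed pattern of symbols (SERPIN clades A to I, SLPI, PI3, UABP-2, WFDC, SPINK, SPINT, CST, A2M and TFPI) selected 41 of 30461 gene rows: 22 serpins counting UABP-2, 5 WAP proteins, 5 cystatins, 4 Kunitz proteins and 5 Kazal proteins. Selection used the symbol alone and no measured value. Only 13259 gene rows carried a symbol, so family members on rows without one were not analysed here, and neither was A2M, for which no row was selected. Expression was profiled by 3′ mRNA sequencing in 12 libraries of Sus scrofa oviduct epithelium, in 3 groups of 4. The first group, called fresh cells here, was scraped single cells of the oviduct, and the labels name no culture step for it. The other groups were spheroids, which are cells gathered into 3-dimensional clusters, formed either in DMEM/F12, a basal culture medium, or in a medium named only Incubation Medium. The library names hold FBS for the former and Diff for the latter, and the labels explain neither name, give no composition of the media, no genotype, sex or age, and do not say how many pigs gave the cells or whether cells were pooled. Where nothing says that replicates came from separate animals, p-values measure only the spread between these samples.

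Library totals lay between 5045218 and 8603809 counts, and each of the 4 fresh cell totals was below each of the 8 spheroid totals. Among oviduct markers, OVGP1, the oviductal glycoprotein of secretory cells, had a mean ± SD (n = 4) of 22196 ± 4586 CPM in fresh cells, falling to 399 ± 251 in DMEM/F12 and 470 ± 320 in incubation medium, and the ciliary regulator FOXJ1 averaged 452 ± 13.5, 88.4 ± 33.4 and 67.3 ± 12.9. Both markers were thus present in every group and far lower after culture. CPM here is the count per unit of TMM-scaled library size. In bulk libraries fewer cells of a type and less RNA per cell cannot be told apart. Counts were not divided by transcript length. CPM values, and the sums and shares over genes below, are therefore compared between samples and not between genes.

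Protease inhibitors limit proteolysis by binding proteases in or near their active site. Serpins trap serine proteases, and some cysteine proteases, in a covalent complex after their exposed loop is cut, although several serpins have lost inhibition and act as carriers or signals. WAP, Kunitz and Kazal proteins are small domains that plug the active site of serine proteases reversibly, and cystatins do the same to cysteine proteases such as cathepsins. In mucosal epithelia these proteins are known for restraining leukocyte elastase, plasminogen activation and the membrane-bound proteases that shape junctions and ion channels.

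A filter on low counts kept 24 of the 41 inhibitors for testing. Of these, 13 were above the filter's cutoff of 1.30 CPM in every library of every group, 2 (SERPINA7, SERPINI2) were so in fresh cells only, and 8 in spheroids but not in fresh cells (PI3, SERPINB8, SERPINE2, SERPINF2, SERPINI1, SPINK9 and UABP-2 in both media, SERPINB2 in DMEM/F12 only). SERPINA1 met the cutoff in no complete group. A gene that is kept because it is high in 1 kind of sample is more likely to differ, so the counts that follow describe the 24 tested genes and support nothing by themselves. In DMEM/F12 spheroids 12 were called higher than in fresh cells and 10 lower, against 35.1% and 35.7% of all 14070 tested genes. In incubation medium spheroids 13 were called higher and 8 lower, against 35.8% and 35.8%. Between the media 2 were called higher in incubation medium and 8 lower, against 12.7% and 12.3% of all tested genes. A call is an adjusted p under 0.05 in edgeR's quasi-likelihood test with Benjamini-Hochberg adjustment over all tested genes. That test does not use the replicate numbers, and every adjusted p below comes from it unless an alternative is named. The median absolute log2 fold change of the 24 inhibitors was 2.23, 2.44 and 0.64 in these 3 comparisons, and that of all tested genes was 0.69, 0.72 and 0.25. Both spheroid groups were compared with the same fresh cell libraries, so their results are set side by side and no overlap between them is given.

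**Figure D1:**
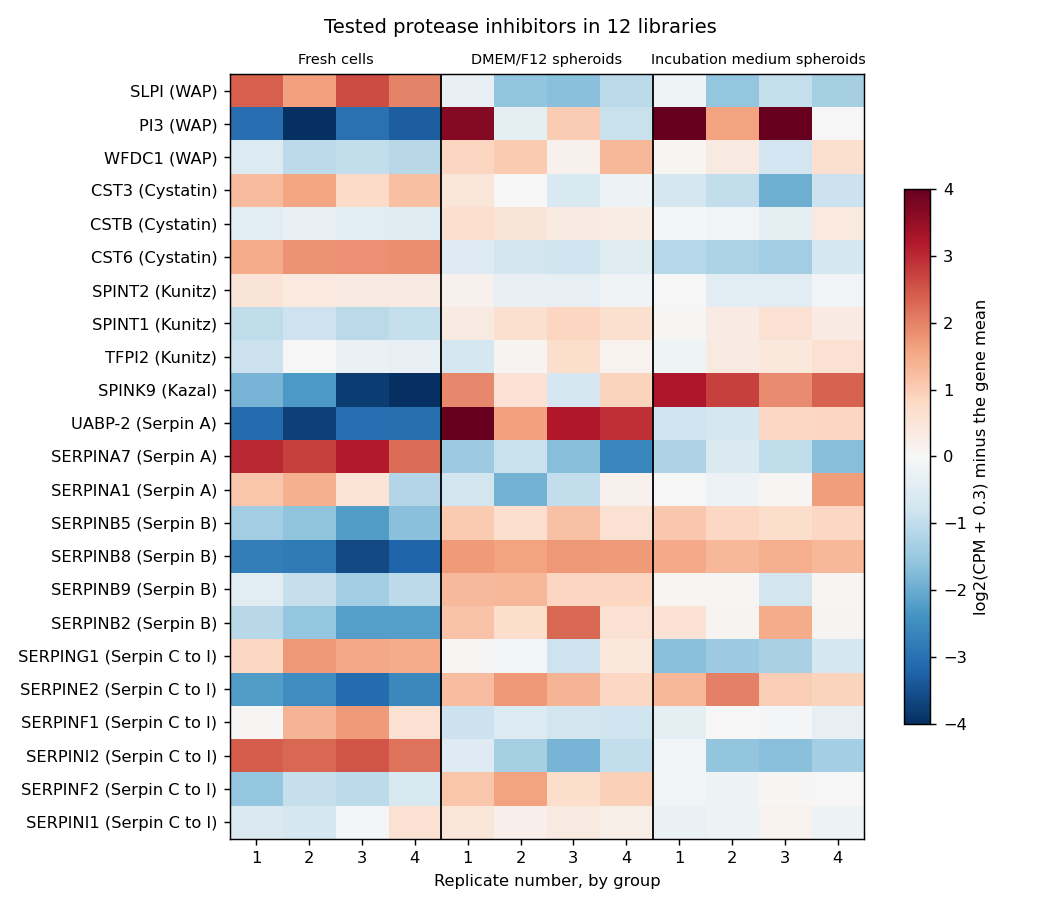
Each row is 1 of 23 tested protease inhibitors with its family, each column a library, and the colour is log2(CPM + 0.3) minus the gene's mean over the 12 libraries, with colours ending at 4 log2 units in either direction. SLPI, CST6, SERPINA7 and SERPINI2 are red in all 4 fresh cell libraries, while PI3, UABP-2, SPINK9, SERPINB8 and SERPINE2 are blue there.

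Called in either direction were 22 of the 24 in DMEM/F12 (background 70.7%), 21 in incubation medium (71.7%) and 10 between the media (25.0%). Calls of at least 2-fold numbered 11 higher and 8 lower in DMEM/F12 (15.1% and 20.3% of all tested genes) and 10 higher and 7 lower in incubation medium (15.3% and 21.5%). Between the media 2 higher (2.06%) and 5 lower (3.38%) were of that size. The libraries of the compared groups did not overlap for 21 inhibitors in DMEM/F12 (65.4%), 17 in incubation medium (64.9%) and 8 between the media (26.9%).

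All 41 inhibitors together summed to 7504 to 9327 CPM in fresh cells, 3107 to 4458 in DMEM/F12 spheroids and 2916 to 3872 in incubation medium spheroids, so every spheroid library lay below every fresh one. SLPI supplied 38.1 to 58.9% of the inhibitor counts in fresh cells, 9.10 to 16.2% in DMEM/F12 and 10.5 to 21.0% in incubation medium. The share of SPINT2, a membrane-anchored Kunitz inhibitor, went from 20.6 to 25.8% of the inhibitor counts to 36.9 to 39.7% and 35.6 to 39.8%. SPINT2 itself fell, from a mean of 1973 CPM in fresh cells to 1354 in DMEM/F12 and 1269 in incubation medium.

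Among the WAP proteins SLPI fell and PI3 and WFDC1 rose. SLPI (ENSSSCG00025059729), the secretory leukocyte peptidase inhibitor, blocks neutrophil elastase and cathepsin G and is antimicrobial in mucus. Its CPM was 4814, 2862, 5496 and 3613 in fresh cell replicates 1 to 4, then 723, 303, 283 and 433 in DMEM/F12 and 815, 314, 466 and 364 in incubation medium. The lowest fresh library was above the highest spheroid library, and replicate 1 was highest in both media. SLPI fell 9.63-fold in DMEM/F12 (log2 fold change -3.27, SE 0.36, adjusted p = 1.48e-06) and 8.57-fold in incubation medium (-3.10, SE 0.35, adjusted p = 2.25e-06). The media differed by 0.17 on the log2 scale (SE 0.33, adjusted p = 0.752). Counts of SLPI were not whole in 7 of 12 libraries, which leaves its level uncertain if reads also matched a similar gene. The markers of secretory cells with a row (OVGP1, LTF and MUC1, 3 of 7 listed) summed to 16330 to 26533 CPM in fresh cells and to 713 to 1322 and 733 to 1301 CPM in the media, with none at 0. OVGP1 and LTF fell in both media, and MUC1 rose from 159 ± 15.1 CPM to 544 ± 45.8 and 473 ± 23.4 (adjusted p = 9.83e-10 and 2.61e-09). The part of these markers in the fall of SLPI was not tested.

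PI3 (ENSSSCG00025058973) is elafin, an inhibitor of elastase and proteinase 3 that transglutaminase can link to surfaces. Fresh cell replicates 1 to 4 held 0.521, 0, 0.560 and 0.391 CPM, 8 counts in all. DMEM/F12 replicates held 86.1, 4.98, 13.5 and 3.36 CPM, and incubation medium replicates 186, 20.5, 116 and 6.44. All 8 spheroid libraries lay above the fresh cells, and within each medium the replicates stood in the same order, 1, 3, 2 and 4. No fresh library exceeded 3 counts, so the fold is given as a ratio of pooled counts: 73.4 in DMEM/F12 (95% exact binomial interval 37.1 to 170, counting error only) and 234 in incubation medium (119 to 543). Both rises were called (adjusted p = 0.00983 and 0.00103). Without DMEM/F12 replicate 1 the fitted DMEM/F12 log2 fold change went from 6.13 to 4.24 and the call was lost (adjusted p = 0.0533; alternatives gave 6.34e-07 to 0.0533), and the fitted incubation medium log2 fold change, which depends on the prior count and is no bound, went from 7.74 to 6.97 without incubation medium replicate 1. Its counts were not whole in 8 of 12 libraries, the most of any inhibitor. WFDC1 (ENSSSCG00025049497), a secreted WAP protein known as a growth inhibitor, held 5.38, 3.76, 3.92 and 3.52 CPM in fresh cells, 14.7, 16.9, 9.11 and 20.5 in DMEM/F12 and 8.45, 10.3, 4.54 and 12.7 in incubation medium. It rose 3.68-fold in DMEM/F12 with no overlap (adjusted p = 9.18e-05) and 2.15-fold in incubation medium, where replicate 3 lay inside the fresh range (adjusted p = 0.00710).

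**Figure D2:**
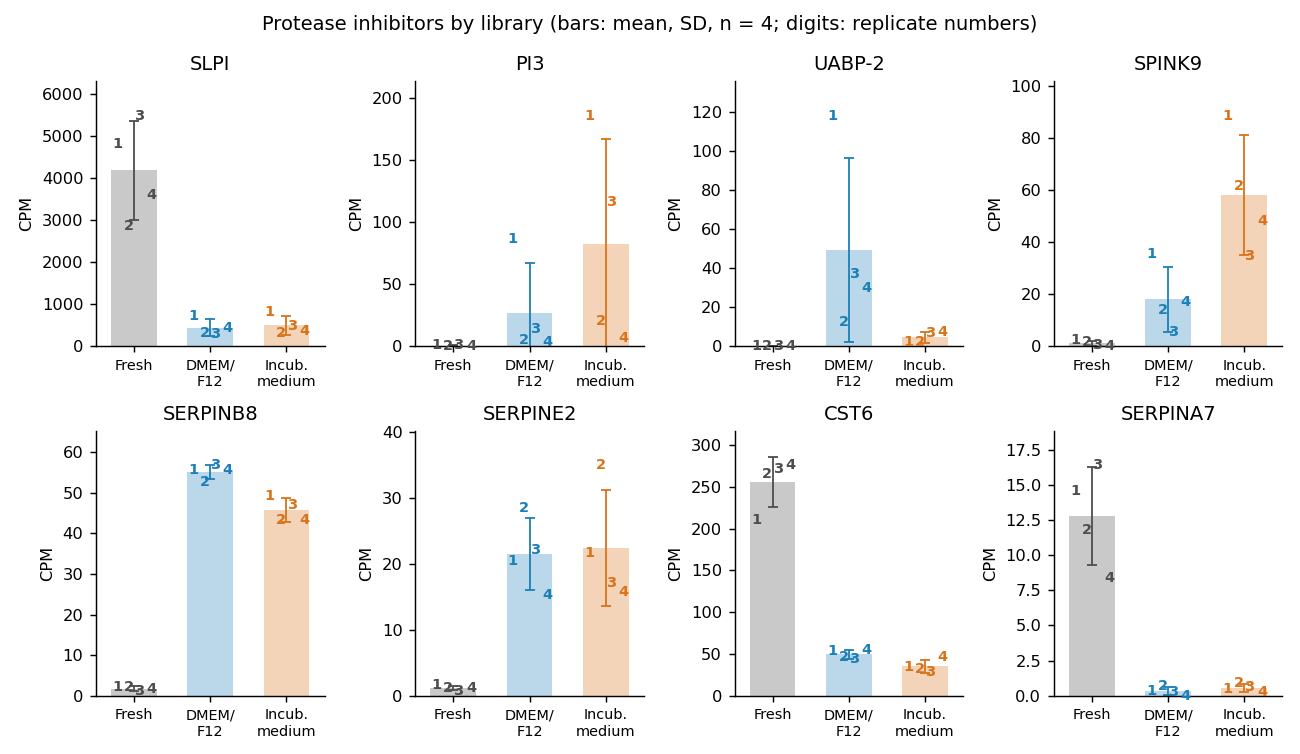
CPM of 8 inhibitors in fresh cells, DMEM/F12 spheroids and incubation medium spheroids, each on its own linear axis from 0. Bars are means of 4 libraries, error bars are SD (cut off at 0 where the SD exceeds the mean), and digits are the replicate numbers; SLPI, CST6 and SERPINA7 are high in fresh cells, and replicate 1 stands highest for PI3 in both media.

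Of the clade A serpins 3 of 5 were tested, and they moved in different directions. UABP-2 (ENSSSCG00025016816), the uteroferrin-associated basic protein, is a uterine serpin secreted by the pig endometrium under progesterone. Fresh cells held 3 counts in all, at 0.174, 0, 0.187 and 0.196 CPM. The DMEM/F12 replicates held 118, 12.1, 36.8 and 29.6 CPM, and the incubation medium replicates 2.02, 2.13, 6.76 and 6.97. The 3 groups did not overlap: every DMEM/F12 library was above every incubation medium library, and these were above the fresh cells. The ratio of pooled counts to fresh cells was 355 in DMEM/F12 (95% exact binomial interval 121 to 1722; adjusted p = 8.71e-06) and 32.3 in incubation medium (10.8 to 159; adjusted p = 0.00985). Without DMEM/F12 replicate 1 the DMEM/F12 rise was still called (fitted log2 fold change 7.41 against 8.31 with it, both dependent on the prior count, adjusted p = 1.12e-06; over its alternatives adjusted p was between 2.01e-13 and 7.07e-05). SERPINA7 (ENSSSCG00025049889) encodes thyroxine-binding globulin, a hormone carrier that does not inhibit proteases. It held 14.6, 11.8, 16.4 and 8.41 CPM in fresh cells, 0.364, 0.696, 0.264 and 0 in DMEM/F12 and 0.476, 0.933, 0.614 and 0.268 in incubation medium. Every spheroid library was under 1 CPM. The log2 fold change was -5.19 (SE 0.44, adjusted p = 1.07e-07) in DMEM/F12, or -5.82 without DMEM/F12 replicate 2, and -4.45 (SE 0.40, adjusted p = 2.30e-07) in incubation medium. SERPINA1, alpha-1 antitrypsin, was near the limit of detection in all groups, at 0.196 to 2.68, 0 to 0.959 and 0.666 to 3.22 CPM. Its call as lower in DMEM/F12 (log2 fold change -1.96, adjusted p = 0.0419) was lost without any of fresh cell replicates 1, 2 and 3 or DMEM/F12 replicates 1, 2 and 3 (adjusted p 0.0562 to 0.138), and its log2 fold change was -2.83 without DMEM/F12 replicate 4.

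Of 8 clade B serpins 4 passed the filter, SERPINB8 through the spheroids and SERPINB2 through the DMEM/F12 spheroids alone, and these 4 rose in both media. These serpins lack a classical signal peptide and act mostly inside cells. SERPINB8 (ENSSSCG00025003753), an inhibitor of furin, held 2.26, 2.15, 1.12 and 1.56 CPM in fresh cells, 55.7, 52.7, 56.8 and 55.6 in DMEM/F12 and 49.3, 43.4, 46.9 and 43.3 in incubation medium. The spheroid libraries were tightly grouped, with a coefficient of variation of 3.13% in DMEM/F12 and 6.34% in incubation medium. SERPINB8 rose 30.6-fold (log2 fold change 4.94, SE 0.14, adjusted p = 5.43e-12) and 25.4-fold (4.67, SE 0.14, adjusted p = 8.95e-12). FURIN, the gene of its target and named after its values were seen, averaged 46.4 ± 6.03, 100 ± 3.09 and 73.7 ± 7.25 CPM in fresh cells, DMEM/F12 and incubation medium. SERPINB5 (ENSSSCG00025003099), maspin, an epithelial serpin without protease inhibition, held 18.4, 15.6, 10.1 and 14.9 CPM in fresh cells. The levels were 99.8, 77.4, 109 and 75.1 in DMEM/F12 spheroids and 103, 87.4, 78.5 and 86.9 in incubation medium, so the media covered each other's range. SERPINB5 rose 6.10-fold (adjusted p = 1.03e-08) and 6.02-fold (adjusted p = 1.06e-08). SERPINB9 (ENSSSCG00025062480), the granzyme B inhibitor, held 4.52, 3.22, 2.24 and 2.93 CPM in fresh cells, 15.8, 16.2, 11.6 and 11.6 in DMEM/F12 and 6.67, 6.53, 3.68 and 6.70 in incubation medium. It rose 4.25-fold (adjusted p = 2.89e-06) in DMEM/F12 and 1.81-fold (adjusted p = 0.00820) in incubation medium, where replicate 3 overlapped the fresh cells. SERPINB2 (ENSSSCG00025003622), an inhibitor of urokinase, held 0.347, 0.179, 0 and 0 CPM in fresh cells, which is 3 counts. It held 2.79, 1.97, 6.47 and 1.80 in DMEM/F12 and 1.79, 1.20, 3.56 and 1.21 in incubation medium, highest in replicate 3 of each. The pooled ratio was 23.1 (95% exact binomial interval 7.68 to 114, adjusted p = 0.000183) and 14.3 (4.68 to 71.3, adjusted p = 0.00138). Without fresh cell replicate 1 the fitted log2 fold changes of SERPINB2, which depend on the prior count and are no bound, went from 4.39 to 5.36 and from 3.67 to 4.64.

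SERPINE2 and SERPINF2 rose in both media and SERPINI1 was not called. SERPINE2 (ENSSSCG00025033129), protease nexin 1, which inhibits thrombin, plasmin and urokinase, held 1.56, 1.25, 0.746 and 1.17 CPM in fresh cells. The spheroids held 20.4, 28.5, 22.1 and 15.3 in DMEM/F12 and 21.7, 35.0, 17.1 and 15.8 in incubation medium, with replicate 2 highest in both. SERPINE2 rose 17.9-fold (log2 fold change 4.16, SE 0.36, adjusted p = 1.30e-07) and 18.5-fold (4.21, SE 0.36, adjusted p = 1.12e-07). SERPINF2 (ENSSSCG00025074476), the plasmin inhibitor alpha-2 antiplasmin, was low throughout, at 0.695 to 1.56 CPM in fresh cells, 4.49 to 8.69 in DMEM/F12 and 2.26 to 2.70 in incubation medium, and these ranges were separate. It rose 5.28-fold (adjusted p = 3.21e-06) and 2.16-fold (adjusted p = 0.00483). SERPINI1, neuroserpin, an inhibitor of the tissue activator, was at 1.25 to 3.52, 2.55 to 3.16 and 1.79 to 2.46 CPM and was called in neither medium (adjusted p = 0.174 and 0.949). Without fresh cell replicate 4 it was called higher in DMEM/F12 (log2 fold change 0.84, adjusted p = 0.0137; alternatives gave 0.0137 to 0.408).

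Of the protease genes these serpins act on, PLAU and PLAT rose in both media and the thrombin gene F2 was not called. The urokinase gene PLAU averaged 7.60 ± 3.80 CPM in fresh cells, 193 ± 39.0 in DMEM/F12 and 183 ± 33.7 in incubation medium, with log2 fold changes of 4.64 (adjusted p = 4.76e-09) and 4.57 (adjusted p = 5.37e-09). The tissue activator PLAT averaged 434 ± 34.8, 597 ± 62.3 and 2656 ± 96.2 CPM, so it rose by 0.46 on the log2 scale in DMEM/F12 (adjusted p = 0.000251) and by 2.62 in incubation medium (adjusted p = 3.35e-11). PLAT was higher in incubation medium than in DMEM/F12 by 2.15 (SE 0.09, adjusted p = 1.16e-08). F2 averaged 3.27 ± 0.394 CPM in fresh cells, 1.90 ± 1.18 in DMEM/F12 and 1.77 ± 0.756 in incubation medium (adjusted p = 0.0878 and 0.0603). Tissue factor (F3), the receptor that starts coagulation, averaged 233 ± 76.2, 624 ± 200 and 520 ± 132 CPM and rose in both media (adjusted p = 0.000279 and 0.00138).

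SERPING1, SERPINF1 and SERPINI2 fell in both media. SERPING1 (ENSSSCG00025072730), the C1 inhibitor of the complement and contact systems, held 195, 365, 327 and 309 CPM in fresh cells, 114, 106, 62.7 and 147 in DMEM/F12 and 34.2, 40.4, 44.5 and 67.5 in incubation medium. The fresh cells were above all spheroids. It fell 2.78-fold (log2 fold change -1.48, SE 0.25, adjusted p = 0.000122) and 6.42-fold (-2.68, SE 0.27, adjusted p = 6.18e-07). SERPINF1 (ENSSSCG00025074148), pigment epithelium-derived factor, a serpin that does not inhibit proteases, held 7.12, 17.9, 23.0 and 10.6 CPM in fresh cells, 3.64 to 4.52 in DMEM/F12 and 5.12 to 6.66 in incubation medium. The fresh cells varied 3.22-fold among themselves and still lay above every spheroid library (log2 fold change -1.87, adjusted p = 5.41e-05, and -1.30, adjusted p = 0.000869). SERPINI2 (ENSSSCG00025026783), pancpin, held 11.1 to 14.0 CPM in fresh cells, 0.396 to 1.46 in DMEM/F12 and 0.491 to 2.02 in incubation medium. It fell 14.0-fold (adjusted p = 4.18e-07) and 13.0-fold (adjusted p = 5.11e-07; log2 fold change -4.42 against -3.71 without incubation medium replicate 1). SERPING1 and SERPINF1 are also made by stromal cells. The stromal and smooth muscle markers with a row (7 of 12 listed) summed to 64.4 to 97.0 CPM in fresh cells, 13.7 to 36.5 in DMEM/F12 and 7.86 to 14.6 in incubation medium, with DES at 0 in all fresh cells. Of 6 tested, 3 were called lower in DMEM/F12 and 5 in incubation medium (35.7% and 35.8% of all tested genes). COL1A1 (31.1 ± 14.3 CPM in fresh cells, 21.9 ± 10.7 in DMEM/F12) and PDGFRA (1.11 ± 0.689 and 1.75 ± 0.463) were called only in incubation medium. ACTA2 (1.68 ± 0.938, 1.37 ± 0.110 and 1.63 ± 0.226 CPM) was called in neither medium. The part of these markers in the falls of SERPING1 and SERPINF1 was not tested.

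Of the 3 tested cystatins, the secreted CST3 and CST6 fell and the intracellular CSTB rose. CST3 (ENSSSCG00025058653), cystatin C, a general inhibitor of cysteine cathepsins, held 1020, 1287, 729 and 990 CPM in fresh cells, 590, 418, 282 and 372 in DMEM/F12 and 261, 217, 109 and 237 in incubation medium. The 3 groups formed separate steps downward, and replicate 3 was lowest in each. CST3 fell 2.42-fold (log2 fold change -1.27, SE 0.26, adjusted p = 0.000536) and 4.89-fold (-2.29, SE 0.27, adjusted p = 3.16e-06). CST6 (ENSSSCG00025069686), the secreted cystatin E/M, which inhibits legumain and cathepsins, held 211, 266, 271 and 276 CPM in fresh cells, 53.5, 45.9, 44.0 and 54.6 in DMEM/F12 and 34.4, 31.6, 29.0 and 46.8 in incubation medium. The fresh cells were above all spheroids, with replicate 1 the lowest of them. It fell 5.16-fold (adjusted p = 4.58e-09) and 7.22-fold (adjusted p = 1.07e-09). CSTB (ENSSSCG00025009470), stefin B, held 134, 150, 138 and 133 CPM in fresh cells, 293, 264, 235 and 227 in DMEM/F12 and 178, 173, 141 and 244 in incubation medium. In incubation medium replicate 3 overlapped the fresh cells. The rise was 1.83-fold (log2 fold change 0.88, SE 0.14, adjusted p = 5.52e-05) in DMEM/F12 and 1.32-fold (0.41, SE 0.14, adjusted p = 0.0167) in incubation medium.

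Of the cysteine proteases on a list of 15, 11 were tested. In DMEM/F12, 7 were called higher and 1 lower than in fresh cells (background 35.1% and 35.7%), and in incubation medium 6 higher and 1 lower (35.8% and 35.8%), with list medians of 0.55 and 0.50 on the log2 scale against -0.01 for all tested genes in each. CAPN2, the catalytic subunit of a calpain, a calcium-activated protease of the cytosol, averaged 145 ± 4.53 CPM in fresh cells, 468 ± 31.5 in DMEM/F12 and 379 ± 17.8 in incubation medium (log2 fold change 1.69 and 1.39, adjusted p = 2.64e-10 and 1.45e-09), and the shared small subunit CAPNS1 averaged 286 ± 12.3, 876 ± 65.5 and 1096 ± 141 CPM. Cathepsin B (CTSB), a target of cystatins, averaged 118 ± 25.4, 196 ± 35.0 and 135 ± 11.5 CPM and rose in DMEM/F12 (0.73, SE 0.15, adjusted p = 0.000604). The calpain genes CAPN1, CAPN2 and CAPNS1 are among those called higher in each medium. The gene called lower in both was CTSF (116 ± 16.9, 57.2 ± 13.0 and 30.6 ± 10.4 CPM). The legumain gene LGMN was called in neither (164 ± 17.8, 154 ± 50.1 and 179 ± 40.6 CPM). CTSF and LGMN were named after their values were seen.

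The Kunitz inhibitors SPINT1 and SPINT2 moved in opposite directions. Both sit in the cell membrane and inhibit matriptase and related proteases. SPINT2 (ENSSSCG00025002350) held 2114, 1936, 1925 and 1916 CPM in fresh cells, 1672, 1184, 1197 and 1362 in DMEM/F12 and 1491, 1118, 1087 and 1378 in incubation medium. The groups of spheroids lay below the fresh cells and overlapped each other. SPINT2 fell 1.46-fold (log2 fold change -0.54, SE 0.12, adjusted p = 0.00121) and 1.56-fold (-0.64, SE 0.12, adjusted p = 0.000331). SPINT1 (ENSSSCG00025016014) held 144, 163, 137 and 149 CPM in fresh cells, 376, 456, 530 and 448 in DMEM/F12 and 300, 367, 446 and 367 in incubation medium. Its replicates stood in the same order, 3, 2, 4 and 1, in both media, allowing for the near tie of 2 and 4 in incubation medium. SPINT1 rose 3.05-fold (1.61, SE 0.13, adjusted p = 5.16e-08) and 2.49-fold (1.32, SE 0.12, adjusted p = 3.45e-07). The matriptase gene ST14 averaged 88.7 ± 5.46, 352 ± 37.5 and 259 ± 25.6 CPM and rose by 1.99 (adjusted p = 9.57e-10) and 1.55 (adjusted p = 7.59e-09) on the log2 scale. TFPI2 (ENSSSCG00025028441), a matrix-bound inhibitor of plasmin and trypsin, held 16.2, 29.0, 24.6 and 23.3 CPM in fresh cells, 17.8, 31.8, 48.6 and 32.8 in DMEM/F12 and 26.2, 37.7, 39.3 and 44.8 in incubation medium. Replicate 1 was the lowest of each group, and the groups overlapped. TFPI2 was not called in DMEM/F12 (0.49, adjusted p = 0.104) but was called with the replicate block, a term for the replicate number (0.46, adjusted p = 0.0109; alternatives gave 0.00929 to 0.351) and without DMEM/F12 replicate 1 (0.71, adjusted p = 0.00929). In incubation medium it was called (0.67, adjusted p = 0.0314; alternatives gave 0.000714 to 0.0951), and that call was lost without fresh cell replicate 1 or 4 or without incubation medium replicate 3 or 4 (adjusted p 0.0556 to 0.0951).

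SPINK9 (ENSSSCG00025054026), a Kazal inhibitor of kallikrein-related proteases that is best known from skin, was the only one of 5 Kazal genes tested. It held 2.26, 1.61, 0.373 and 0 CPM in fresh cells, 35.2, 13.8, 5.55 and 17.1 in DMEM/F12 and 88.6, 61.6, 34.5 and 47.9 in incubation medium. Spheroids lay above fresh cells in both media, and only DMEM/F12 replicate 1 reached the incubation medium range. SPINK9 rose by 4.01 on the log2 scale in DMEM/F12 (SE 0.71, adjusted p = 0.000151) and by 5.71 in incubation medium (SE 0.66, adjusted p = 2.44e-06), or by 4.69 and 6.38 without fresh cell replicate 1. Of the 10 squamous and basal epithelial markers listed, TP63 alone had a row, and it summed to at most 0.196, 0.132 and 0.268 CPM in the 3 groups.

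**Figure D3:**
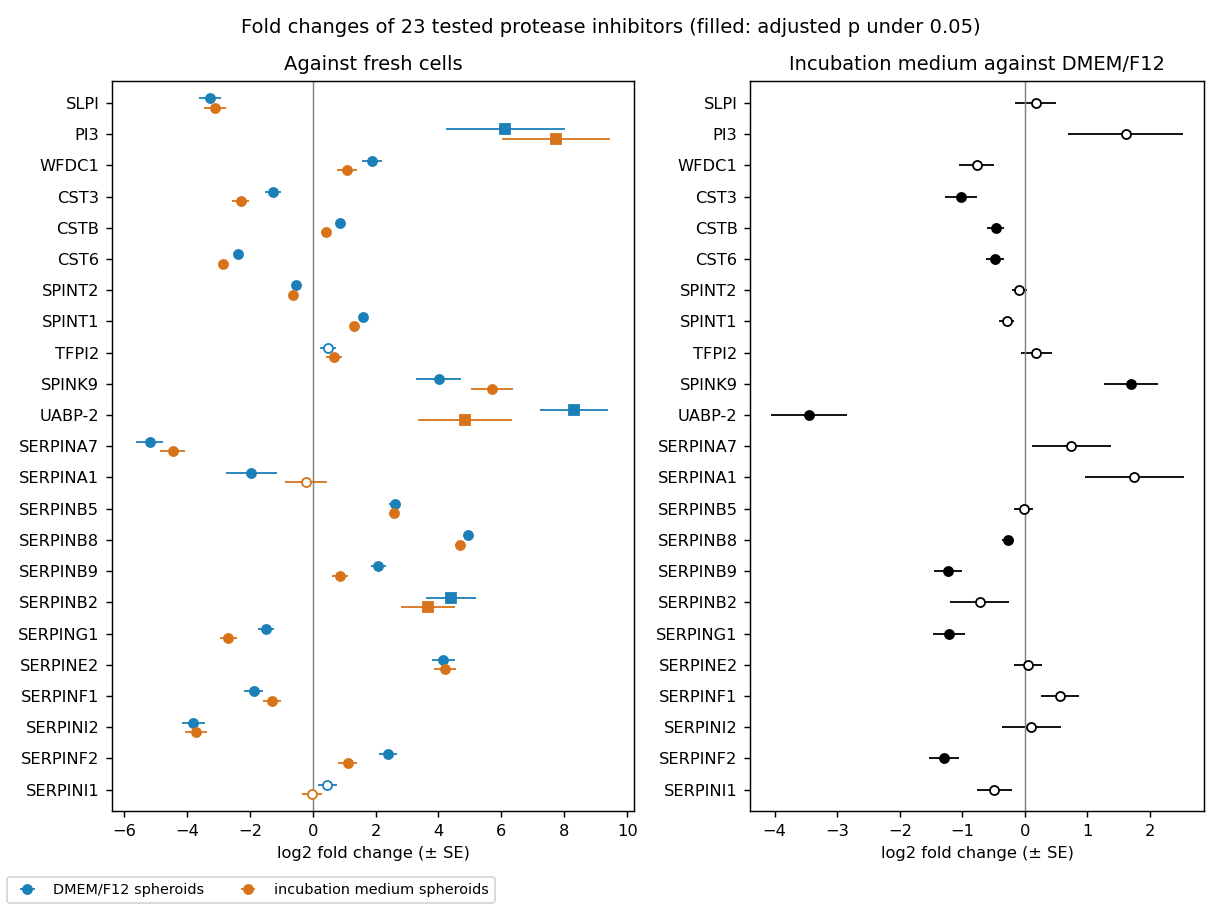
Log2 fold changes with SE of 23 tested inhibitors, on the left for each spheroid group against fresh cells and on the right for incubation medium against DMEM/F12. Filled symbols passed an adjusted p of 0.05, and squares mark PI3, UABP-2 and SERPINB2, whose fresh cells held at most 3 counts per library, so that their fitted size depends on the prior count; in the left panel the clade B serpins lie to the right of 0 and SLPI, CST6, SERPINA7 and SERPINI2 to the left.

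The comparison of media asked what differed between spheroids that formed in different culture conditions. Of the inhibitors reported by name SPINK9 was called higher in incubation medium, and CST3, CSTB, CST6, SERPING1, SERPINB8, SERPINB9, SERPINF2 and UABP-2 lower. SPINK9 was higher by 1.69 on the log2 scale (SE 0.43, adjusted p = 0.00972) and in 4 of 4 same-numbered pairs, by 2.52-, 4.46-, 6.22- and 2.79-fold. The SPINK9 call was lost with DESeq2 (1.70, adjusted p = 0.0745; alternatives gave 1.04e-05 to 0.0745). UABP-2 was lower in 4 of 4 pairs, at 0.0172, 0.177, 0.183 and 0.236 of the DMEM/F12 level. On the log2 scale the difference was -3.45 (SE 0.61, adjusted p = 0.000918), and -2.54 without DMEM/F12 replicate 1 (adjusted p = 0.000935; alternatives gave 3.68e-05 to 0.00483). CST3 had a log2 fold change of -1.02 (SE 0.26, adjusted p = 0.0111) and SERPING1 had a log2 fold change of -1.21 (SE 0.26, adjusted p = 0.00382), both lower in 4 of 4 pairs. SERPINB9 (-1.23, adjusted p = 0.000940) and SERPINF2 (-1.29, adjusted p = 0.00134) were lower in all pairs and without overlap between the groups. Smaller differences were called for CSTB (-0.47, adjusted p = 0.0217), CST6 (-0.48, adjusted p = 0.0230) and SERPINB8 (-0.27, adjusted p = 0.0448). Each of these 3 calls depended on single libraries: it was lost without any of 4 libraries for CSTB (DMEM/F12 replicates 1 and 2, incubation medium replicates 2 and 3), 4 for CST6 (DMEM/F12 replicates 1 and 4, incubation medium replicates 2 and 3) and 8 for SERPINB8 (fresh cell replicate 4, all DMEM/F12 replicates, incubation medium replicates 2, 3 and 4). The fold changes stayed at -0.36 to -0.45 for CSTB, -0.40 to -0.44 for CST6 and -0.24 to -0.29 for SERPINB8 where these calls were lost. The SERPINB8 call was also lost without the filter (adjusted p = 0.0794) and with only genes of whole counts (0.0576).

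For PI3 the call between the media depended on the replicate numbers. The mean was 27.0 ± 39.6 CPM (SD, n = 4) in DMEM/F12 and 82.1 ± 84.4 in incubation medium, and the unpaired difference was not called (log2 fold change 1.61, SE 0.92, adjusted p = 0.224). Within same-numbered pairs PI3 was 2.16-, 4.12-, 8.58- and 1.92-fold higher in incubation medium. With the replicate block it was called (1.85, SE 0.27, adjusted p = 0.000161; alternatives gave 0.000161 to 0.576), and also without DMEM/F12 replicate 1 (3.52, adjusted p = 0.0137). The block also called WFDC1 lower in incubation medium (-0.78, adjusted p = 0.00313, against 0.0556 unpaired; alternatives gave 0.00313 to 0.168) and SPINT1 lower (-0.29, adjusted p = 0.0285, against 0.0978; alternatives gave 0.0257 to 0.259). WFDC1 was lower in 4 of 4 pairs, at 0.499 to 0.622 of the DMEM/F12 level, and SPINT1 in 4 of 4, at 0.799 to 0.841. Across the tested inhibitors the same replicate number was highest in both media for 15 of 24 genes (62.5%, against 40.6% of all tested genes) and lowest in both for 13 (54.2%, against 40.1%).

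**Figure D4:**
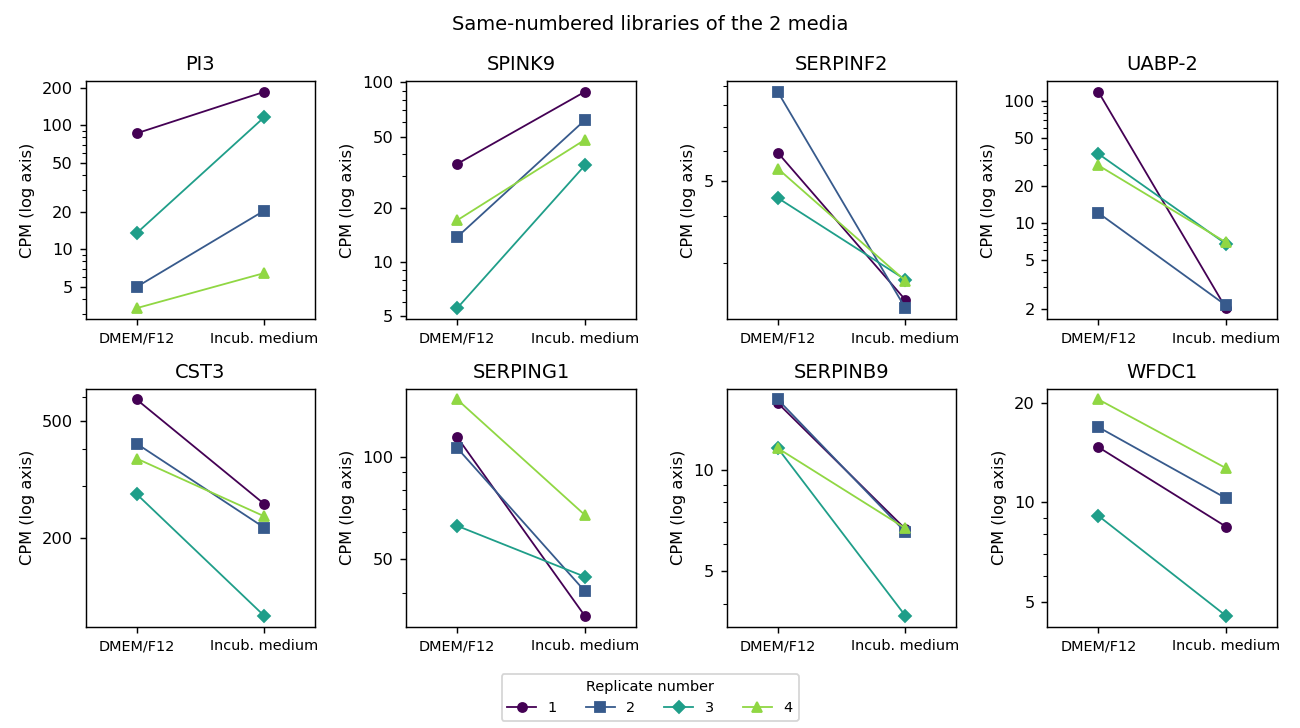
CPM on a log axis for 8 inhibitors in DMEM/F12 and incubation medium spheroids, with a line joining the libraries that carry the same replicate number. All 4 lines rise for PI3 and SPINK9 and fall for SERPINF2, UABP-2, CST3, SERPING1, SERPINB9 and WFDC1, and the lines of PI3 and WFDC1 keep their order.

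Some inhibitors also varied widely among replicates. The median SD of log2 CPM within groups was 0.44 for the 24 tested inhibitors and 0.22 for all tested genes, and 8 of the 24 were in the top 10% of all tested genes. PI3 had an SD of 1.79, at the 99.9th percentile, followed by SPINK9 (1.10, 99.6), SERPINA1 (0.99, 99.3) and UABP-2 (0.96, 99.2). These SDs include counting noise, which is larger at low counts, and genes were not matched by count. In fresh cells PI3 held 8 counts, UABP-2 3 and SPINK9 24. SERPINA1 held 35, 13 and 43 counts in fresh cells, DMEM/F12 and incubation medium. The highest DMEM/F12 library exceeded the lowest 25.7-fold for PI3, 9.76-fold for UABP-2 and 6.35-fold for SPINK9. SPINT1 and SPINT2 were at the other end, with an SD of 0.19 each, at the 42.0 and 42.6 percentiles.

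Gene order could be read for 36 of the 41 inhibitors from the RefSeq annotation of assembly Sscrofa11.1, used here for neighbourhood only because the build behind the counts is not given in the sources used here. PI3 and SLPI lie in 1 WAP cluster with 4 genes between them, and the former rose while the latter fell in both media. SERPINF1 and SERPINF2 have 1 gene between them, and they fell and rose. UABP-2 and SERPINA1 have 1 gene between them, and UABP-2 had the largest pooled ratio in DMEM/F12 while SERPINA1 reached at most 3.22 CPM in any library. In the clade B cluster SERPINB2 lies next to SERPINB10 and, after 1 gene, SERPINB7, and SERPINB5 follows SERPINB13 after 1 gene. Only SERPINB2 and SERPINB5 of this cluster's matched members passed the filter, and both rose. SERPINB8 and SERPINB9, which also passed and rose, were either not matched or had no other inhibitor within 10 genes.

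Among the 17 inhibitors that did not pass the filter, SERPINB13, SERPINA12, SPINK14 and WFDC8 were at 0 in all 12 libraries, which allows up to 3 counts per library. The other 13 reached at most 2.41 CPM, the level of SERPINB11 in incubation medium replicate 4. WFDC5, a WAP gene of the epidermis, had 0 counts in fresh cells, 6 in DMEM/F12 and 29 in incubation medium, nearly all in incubation medium replicates 1 and 3 (1.19 and 2.21 CPM). Those replicates were also the highest for PI3 in that medium. SERPINB7, a serpin of the epidermis, had 23 counts in fresh cells, of which replicates 2 and 3 (1.79 and 2.05 CPM) held most, against 3 and 8 in the media. SERPINC1, antithrombin, had 15, 15 and 12 counts in the 3 groups, and CST7, the leukocyte cystatin F, 12, 4 and 3. SPINK2 had 16, 29 and 16 counts. SERPINA5, SERPINB10, SERPIND1, CST11, SPINK4, SPINK6 and TFPI had at most 8 counts in any group, too few to compare.

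A list of 40 serine proteases and their receptors had 16 tested genes. In each medium 12 were called higher than in fresh cells and 1 lower (background 35.1% and 35.7% in DMEM/F12, 35.8% and 35.8% in incubation medium). The list medians were 1.27 in DMEM/F12 and 0.94 in incubation medium on the log2 scale. HPN, named after its values were seen, was the gene called lower in DMEM/F12, and CFD in incubation medium. Complement factor D (CFD) averaged 967 ± 126 CPM in fresh cells, 907 ± 114 in DMEM/F12 and 242 ± 11.0 in incubation medium, and was 3.99-fold lower in incubation medium than in fresh cells (adjusted p = 1.91e-09). TMPRSS2, a membrane serine protease, averaged 42.3 ± 14.9, 215 ± 34.4 and 95.6 ± 15.6 CPM and was lower in incubation medium than in DMEM/F12 (-1.17, SE 0.20, adjusted p = 0.000705). Between the media 3 genes of the list were called higher in incubation medium and 5 lower (background 12.7% and 12.3%).

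Protease inhibitors outside the selected families, a list of 30 with 13 tested, were called in both directions: 6 higher and 5 lower in DMEM/F12 (background 35.1% and 35.7%), and 4 higher and 4 lower in incubation medium (35.8% and 35.8%). TIMP1, an inhibitor of metalloproteinases, averaged 129 ± 14.7 CPM in fresh cells, 777 ± 240 in DMEM/F12 and 358 ± 53.9 in incubation medium (log2 fold change 2.59 and 1.47, adjusted p = 2.11e-08 and 4.13e-06). TIMP2 averaged 193 ± 32.7, 712 ± 101 and 225 ± 40.0 CPM and was higher in DMEM/F12 than in either other group (adjusted p = 5.74e-08 against fresh cells and 5.20e-06 between media). CD109, a relative of alpha-2 macroglobulin, averaged 158 ± 14.9, 294 ± 25.9 and 226 ± 22.8 CPM and rose in both media (adjusted p = 1.65e-06 and 0.000275). Between the media none of the 13 was called higher in incubation medium (0 genes) and 4 were lower (CD109, LXN, TIMP1 and TIMP2). The background there was 12.7% and 12.3%.

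**Figure D5:**
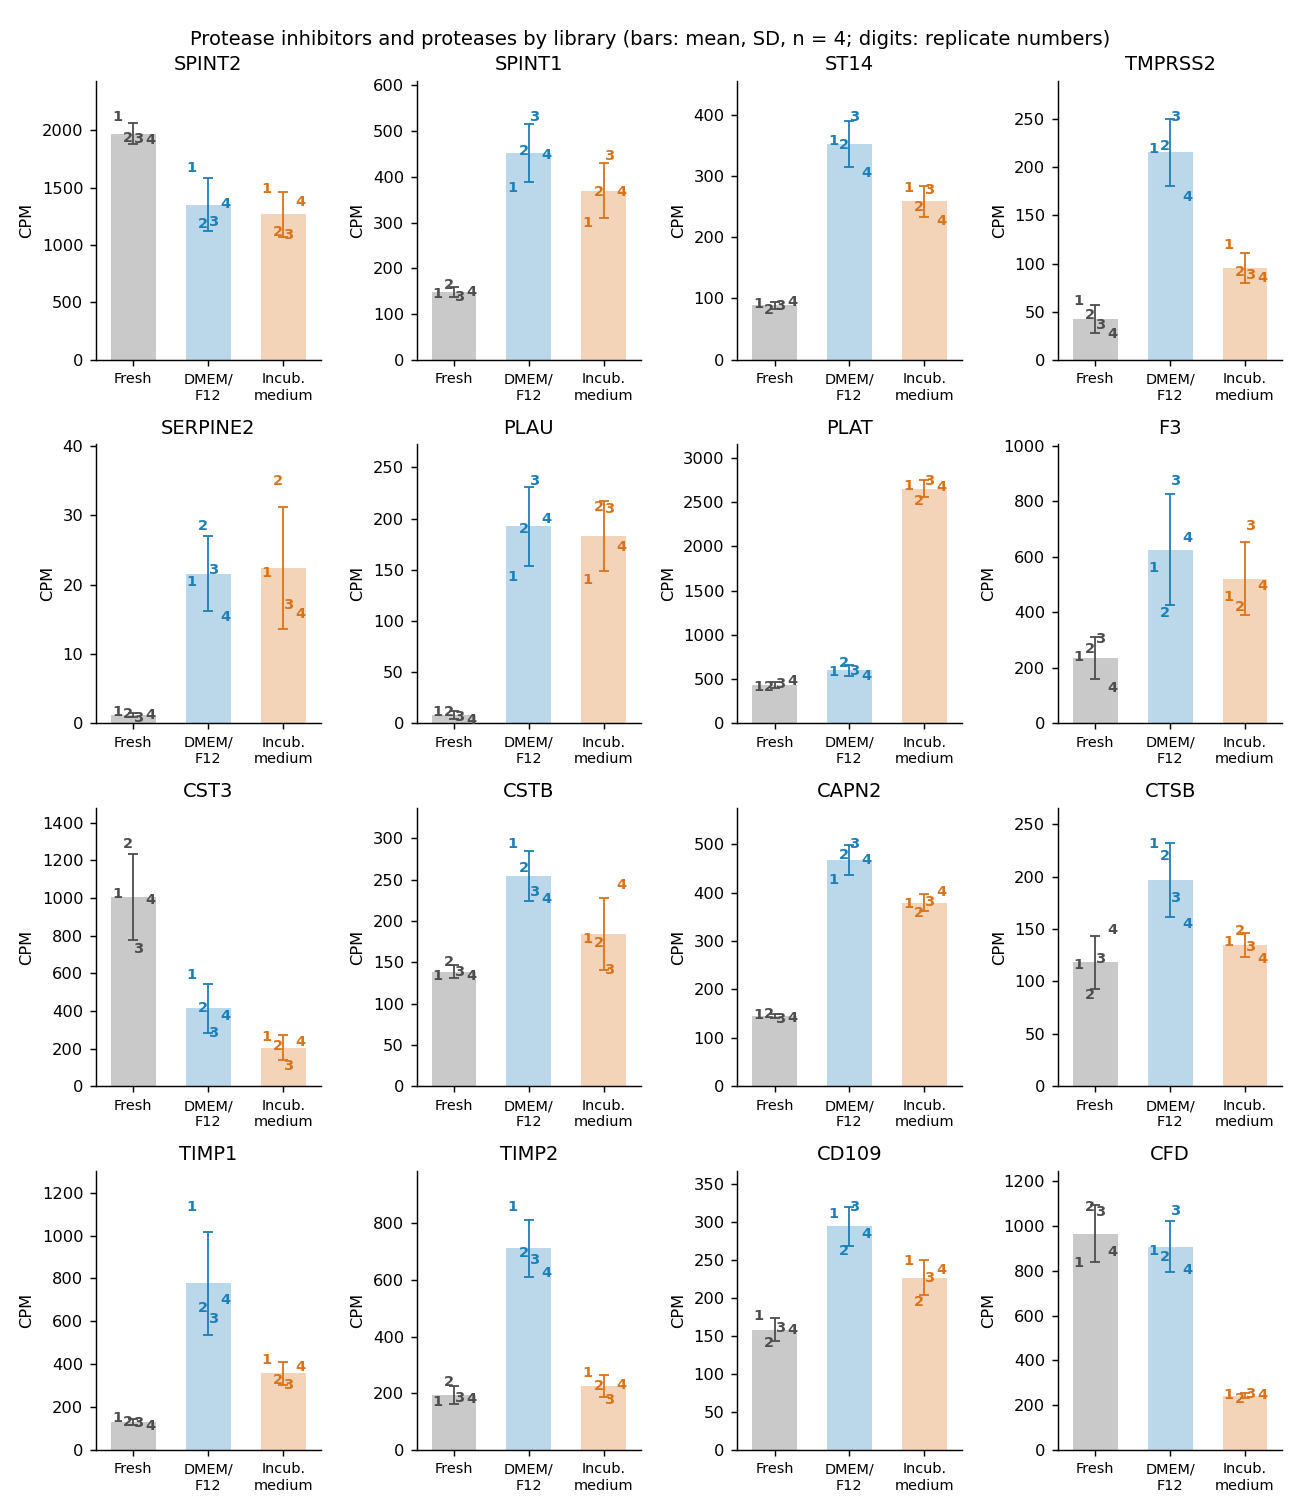
CPM of 8 protease inhibitors (SPINT2, SPINT1, SERPINE2, CST3, CSTB, TIMP1, TIMP2, CD109) with 7 proteases (ST14, TMPRSS2, PLAU, PLAT, CAPN2, CTSB, CFD) and the receptor F3 in the 3 groups, on linear axes from 0, with means as bars, SD as error bars (n = 4) and replicate numbers as digits. SPINT1 and ST14 rise in both media, PLAT is highest in incubation medium at 2656 CPM, and TIMP1 and TIMP2 are highest in DMEM/F12.

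Markers of other cell types moved as well, and their part in the results above was not tested. Multiciliated cell markers (7 of 13 with a row, none at 0) summed to 1143 to 1336 CPM in fresh cells and to 132 to 327 and 133 to 235 in the media. Endothelial markers (6 of 8 with a row) summed to 41.7 to 57.5, 136 to 252 and 91.0 to 148 CPM, mostly from CDH5 and KDR, which rose in both media, with VWF at 0 in fresh cells and DMEM/F12 and ERG at 0 in incubation medium. PECAM1 fell in both, from 15.1 ± 0.864 CPM to 7.89 ± 0.998 and 8.03 ± 0.791 (adjusted p = 2.01e-05 and 2.49e-05), and TEK, which was not tested, held 1.12 to 1.91, 0.240 to 0.696 and 0.123 to 0.714 CPM. Leukocyte markers (7 of 12 with a row) summed to 455 to 506, 421 to 487 and 518 to 610 CPM, nearly all of it CD79A, which averaged 456 ± 21.8, 437 ± 33.1 and 540 ± 42.6. Counts of CD79A were not whole in 11 of 12 libraries, which leaves its level and this sum uncertain. CD3E averaged 1.44, 0.149 and 0.133 CPM and MS4A1 0, 0.0330 and 0.0335, and neither was tested. PTPRC, the pan-leukocyte antigen, averaged 6.99 ± 1.19, 2.53 ± 0.824 and 1.20 ± 0.765 CPM. The macrophage gene AIF1 fell in both media (9.80 ± 1.69, 3.22 ± 2.43 and 4.09 ± 1.99 CPM), the neutrophil gene S100A8 rose in both (0.0447 ± 0.0895, 4.72 ± 1.88 and 7.91 ± 3.09), and the monocyte gene CD14 was called in neither (2.66 ± 1.38, 3.23 ± 0.487 and 4.53 ± 1.27). Mesothelial markers (3 of 5 with a row) summed to 185 to 236, 134 to 186 and 113 to 136 CPM, nearly all of it WT1. BNC1 was at 0 in all groups. CALB2 was at 0 in fresh cells and incubation medium and reached at most 0.121 CPM in DMEM/F12.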

How the data were processed

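Expression was measured in 12 libraries by oligo-dT capture and tagmentation, per the labels' protocols. The authors deposited 1 table of expected counts per gene and 1 table of CPM values. Deposited CPM equalled the expected count over the library total to within 4.98e-06, and served only for that check. The submitters' processing notes name fastp 0.24.0, STAR 2.7.11, SAMtools 1.22.1, featureCounts and Subread 2.1.1. Their settings, the use of strand or molecular identifiers, and the genome build are not given in the sources used here.

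Of 30553 rows, 92 were spike-in sequences, no more than 0.000614% of any library, and were left out. Between 19.1 and 20.5% of nonzero counts were not whole, which leaves genes with near-identical copies uncertain, and 12 of the 41 inhibitors had such a count. Expected counts were rounded and fitted with edgeR 4.0.16 (limma 3.58.1, R 4.3.3): low counts were filtered with filterByExpr, libraries were scaled by TMM, and all 3 groups shared a quasi-likelihood fit over 14070 genes. Library totals of 5045218 to 8603809 set the precision. Each SE is the absolute log2 fold change over the square root of the test's F statistic. Intervals and the limit of 3 counts cover counting error only. Within groups, libraries differed beyond sampling noise (chi-square over its degrees of freedom was 5.44 to 15.5), so each was counted as 1 replicate. The script was tested on simulated data with few changed genes and independent replicates. That test does not cover changes as wide as those here or samples paired by number.

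Deviations from group means correlated between same-numbered samples (r 0.23 to 0.28 for DMEM/F12 and fresh cells, 0.20 to 0.29 for incubation medium and fresh cells, 0.39 to 0.52 between media), so the numbers pair the samples, and the fit with the replicate block is given where it changes a call. The labels do not say what a number marks. Per-library values are given for SLPI, PI3, UABP-2, the 16 inhibitors of highest mean CPM and the 5 called with the largest change in each comparison. From each related gene list up to 4 called genes of highest mean CPM are named in each comparison. F2, FURIN, HPN, CTSF and LGMN were named outside that rule, with their values known. The inhibitors, lists and rules were chosen with earlier results of these data known. Alternatives were DESeq2 1.42.0, its size factors in edgeR, no filter or a mean of at least 10 counts, unscaled library totals, only the groups compared, only genes with whole counts, the replicate block, and leaving out each library. The results of 1 tested inhibitor are not reported here, although it is included in the counts, sums and medians over all inhibitors.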

Additional observations from a re-analysis of the deposited data

Results flagged for a closer look

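In 7 of 69 checks of a tested inhibitor within a group of 4, a single library stood apart from the other three by Dixon's criterion, which chance meets in about 1 of 20 checks. In fresh cells, replicate 1 had 2114 CPM of SPINT2, against 1916 to 1936 in the others, and 211 CPM of CST6, against 266 to 276. In DMEM/F12 spheroids, replicate 1 had 86.1 CPM of PI3, against 3.36 to 13.5. In incubation medium spheroids, replicate 1 had 2.02 CPM of SERPINI2 (0.491 to 0.670 in the others), and replicate 4 had 3.22 CPM of SERPINA1 (0.666 to 0.860). In the same medium replicate 3 had 3.68 CPM of SERPINB9 (6.53 to 6.70) and 2.46 CPM of SERPINI1 (1.79 to 1.88).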

How the results depend on the processing

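For the 24 tested inhibitors in 3 comparisons, 1322 of 1395 alternative values kept direction and side of the threshold, 30 lost the call, 24 gained it and 19 turned sign. With only genes whose counts were whole in all libraries, 12 inhibitors could be tested. In DMEM/F12, 9 were called higher and 3 lower, against 35.5% and 35.0% of the 5923 genes tested in that setting. In incubation medium 9 were called higher and 3 lower (35.7% and 35.9%), and between media 1 higher and 4 lower (11.2% and 11.5%). Fewer genes tested is part of that setting. DESeq2 called 1 higher between media (7.59% of 23767 genes). Leaving out a library gave 5 to 8 called lower (9.33 to 12.3% of all tested genes), lowest without incubation medium replicate 2. The cause was not tested. With the replicate block 13 were called higher and 10 lower in DMEM/F12 (36.8% and 37.7% of all tested genes). In incubation medium the block called 14 and 8 (37.5% and 37.8%), and between media 3 and 10 (16.6% and 16.2%). Among the inhibitors reported by name the block changed no call other than those of TFPI2, PI3, WFDC1 and SPINT1 given above. Unscaled library totals moved the median of all genes between media to -0.10 on the log2 scale. There 2 inhibitors were called higher and 10 lower (8.81% and 17.5% of all tested genes). The values that turned sign were uncalled throughout, and the cause was not tested: against fresh cells in incubation medium, SERPINI1 was 0.04 without the filter and -0.20 to 0.36 with a library left out, and SERPINA1 -0.98 to 0.18. Between media, SERPINE2 was -0.04 with unscaled totals and -0.24 to 0.22 with a library left out, SLPI -0.19 to 0.53, SPINT2 -0.18 to 0.02, SERPINB5 -0.10 to 0.08, TFPI2 -0.03 to 0.43 and SERPINI2 -0.63 to 0.44. Depth limits SERPINA1, SERPINI1, SERPINB2 and the 17 untested inhibitors, and the fresh cell values of PI3 and UABP-2.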
